A study of Mus musculus with 24 samples.

Results

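The comparison concerns a single protein, LAP2alpha, mapped along the genome of the same wild-type cells after a shorter and a longer shearing of their chromatin. It rests on 2 of the 24 samples of the series, 1 library after 12 and 1 after 30 sonication cycles, and on every region called in them. These were 254 and 194 domains called by EDD, a caller of broad enriched domains, and 8950 and 5405 islands called by SICER, a caller of clustered windows. Each base of the genome was placed in 1 of 3 classes, covered in the 12-cycle library only, in both, or in the 30-cycle library only. The cells were immortalized murine dermal fibroblasts of genotype Lap2alpha +/+ (Tmpo WT), grown asynchronously without treatment, fixed with formaldehyde and sheared in a Bioruptor. No age or strain was stated. Both immunoprecipitations used the mouse hybridoma supernatant 8C10-1H11 against LAP2alpha, and fragments of the same size range were sequenced. In the study, the longer sonication served to bring compact chromatin, which stays in longer fragments, into the sequenced size range. The identity of the cells and the specificity of the antibody could not be checked from lists of regions, and no LAP2alpha list from KO cells was used here.

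There was 1 library for each sonication, so no difference between them has a replicate check and no test was made. The libraries also came from different flow cells, so the effects of shearing and of the sequencing run cannot be told apart. Islands held 5097817 reads at 12 cycles and 6684246 at 30 cycles. The median island carried 20.3 reads per kb at 12 cycles and 36.8 at 30 cycles, and the 5th percentiles were 17.4 and 33.1 reads per kb, so the density at which an island was called was itself higher in the 30-cycle library. What part these differences between the libraries have in the classes was not tested.

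LAP2alpha is a nucleoplasmic product of the gene Tmpo. It lacks the membrane anchor of lamina-associated polypeptide 2 isoforms such as LAP2beta and binds A-type lamins in the interior of the nucleus, whereas lamin B1 is held at the nuclear envelope. Chromatin at the envelope is known to be poor in genes and in G+C and to be compact, while chromatin of the interior is mostly open and gene-rich.

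Sequence from the centres of a pair of long islands is shown as an example of the range in base composition. Single windows of this size do not measure a class. The 300 bases at the middle of the longest shared island and of the longest island found at 30 cycles only are printed from the plus strand of NCBIM37, the same assembly as mm9, in lower case with every CpG dinucleotide in capitals.
Both, chr15:83393851-83394150: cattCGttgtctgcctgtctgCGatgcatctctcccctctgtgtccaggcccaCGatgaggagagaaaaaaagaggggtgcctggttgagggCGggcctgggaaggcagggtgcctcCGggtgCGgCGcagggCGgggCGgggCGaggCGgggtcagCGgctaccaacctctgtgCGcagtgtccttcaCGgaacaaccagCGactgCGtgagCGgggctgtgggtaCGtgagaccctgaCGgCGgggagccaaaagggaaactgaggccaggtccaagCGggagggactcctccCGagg
30-cycle only, chr14:27409851-27410150: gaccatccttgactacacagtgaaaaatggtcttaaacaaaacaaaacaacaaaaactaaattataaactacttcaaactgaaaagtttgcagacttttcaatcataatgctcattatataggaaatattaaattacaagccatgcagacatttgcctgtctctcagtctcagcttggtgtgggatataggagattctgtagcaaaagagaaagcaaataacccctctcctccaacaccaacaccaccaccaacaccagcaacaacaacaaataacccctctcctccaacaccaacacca
The first lay in Tspo, which encodes the translocator protein of the outer mitochondrial membrane, in a 12-cycle island of 724 kb with 17206 reads, overlapped by islands of the 30-cycle library. The label refers to islands and to the island as a whole. By domains, 64.1% of this island lay in 12-cycle domains and 0% in 30-cycle domains, and the window itself lay in a stretch found at 12 cycles only. The window held 22 CpG dinucleotides at 66.3% G+C, and its island 13.5 per kb at 49.8% G+C. The second lay in Fam116a, in a 30-cycle island of 122 kb with 4826 reads (39.6 per kb, exact Poisson 95% interval 38.4 to 40.7). It held 0 CpG dinucleotides at 38.3% G+C, and its island 10.3 per kb at 41.3% G+C. Poisson intervals here and below cover counting error only.

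Domains of the 12-cycle library covered 506.5 Mb and those of the 30-cycle library 649.3 Mb. Of this length 194.2 Mb was covered at 12 cycles only, 312.4 Mb in both libraries and 337.0 Mb at 30 cycles only. The shared length made up 61.7% of the 12-cycle and 48.1% of the 30-cycle domains. The domains of the 30-cycle library were fewer and longer, with a mean of 3.35 Mb against 1.99 Mb and a longest domain of 71.4 Mb against 40.8 Mb, while the medians were 1.1 Mb and 0.99 Mb. The shared stretches had a median length of 825.0 kb, the stretches found at 30 cycles only 775.5 kb and those found at 12 cycles only 577.5 kb. Of the stretches longer than 5 Mb, 7 were found at 12 cycles only, 12 in both and 9 at 30 cycles only.

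Most of the sequence found at 30 cycles only lay in 30-cycle domains that overlapped a 12-cycle domain somewhere. It was not always near the overlap, as the longest such stretch ran over 18.03 Mb of chromosome 12. Domains of the 30-cycle library that overlapped a 12-cycle domain held 257.5 Mb of it (76.4%), and the 78 domains that overlapped none held 79.5 Mb. These 78 were 40.2% of the 194 domains of that library (exact binomial 95% interval 33.3 to 47.5). Long domains of the 30-cycle library often joined several 12-cycle domains, since 27 of them held parts of 2 or more. The domain from 3201001 to 63426000 on chromosome 12 held parts of 14, which covered 18.4% of it, and the domain from 70345001 to 141702000 on chromosome 1 parts of 8, which covered 42.8%. The reverse also occurred, as 11 domains of the 12-cycle library held parts of 2 or more 30-cycle domains.

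The sequence found at 12 cycles only was of 3 kinds in nearly equal amounts. The uncovered parts of domains that overlapped a 30-cycle domain gave 71.5 Mb. Another 55 domains without overlap on chromosomes that had 30-cycle domains gave 62.0 Mb, and 32 domains on chromosomes without any 30-cycle domain gave 60.7 Mb. Together 87 of the 254 domains (34.3%, interval 28.4 to 40.4) had no overlap. Of the others, 103 lay whole inside 30-cycle domains. Edges were rarely shared, since 14 of the 334 edges of overlapping 12-cycle domains (4.19%) lay within 11 kb of a 30-cycle edge and 62 (18.6%) within 110 kb. The median distance was 863.5 kb.

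The classes were unevenly spread over the chromosomes. Chromosomes 3, 8, 13, 19 and X carried no domain at 30 cycles. At 12 cycles domains had covered 21.2% of chromosome 8, 11.9% of chromosome 13 and 23.1% of chromosome 19, but 1.06% of chromosome 3 and 1.52% of chromosome X. Coverage of chromosome 15 was 15.1% at 12 cycles and 0.24% at 30 cycles, and that of chromosome 17 was 21.0% and 2.97%. The opposite was seen on chromosome 12, where domains covered 22.8% at 12 cycles and 75.3% at 30 cycles, on chromosome 1 with 34.1% and 66.2%, on chromosome 14 with 7.42% and 31.1%, and on chromosome 7 with 37.0% and 58.6%. In all, coverage by domains was higher at 30 cycles on 9 of the 20 chromosomes. Chromosomes 1, 7 and 12 held 45.7% of the shared length and 49.97% of the length found at 30 cycles only. On chromosomes 5, 9 and 11 the totals were close, with 35.2% and 30.9%, 31.5% and 28.8%, and 33.7% and 33.0%, but each of these chromosomes held all 3 classes.

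**Figure D1:**
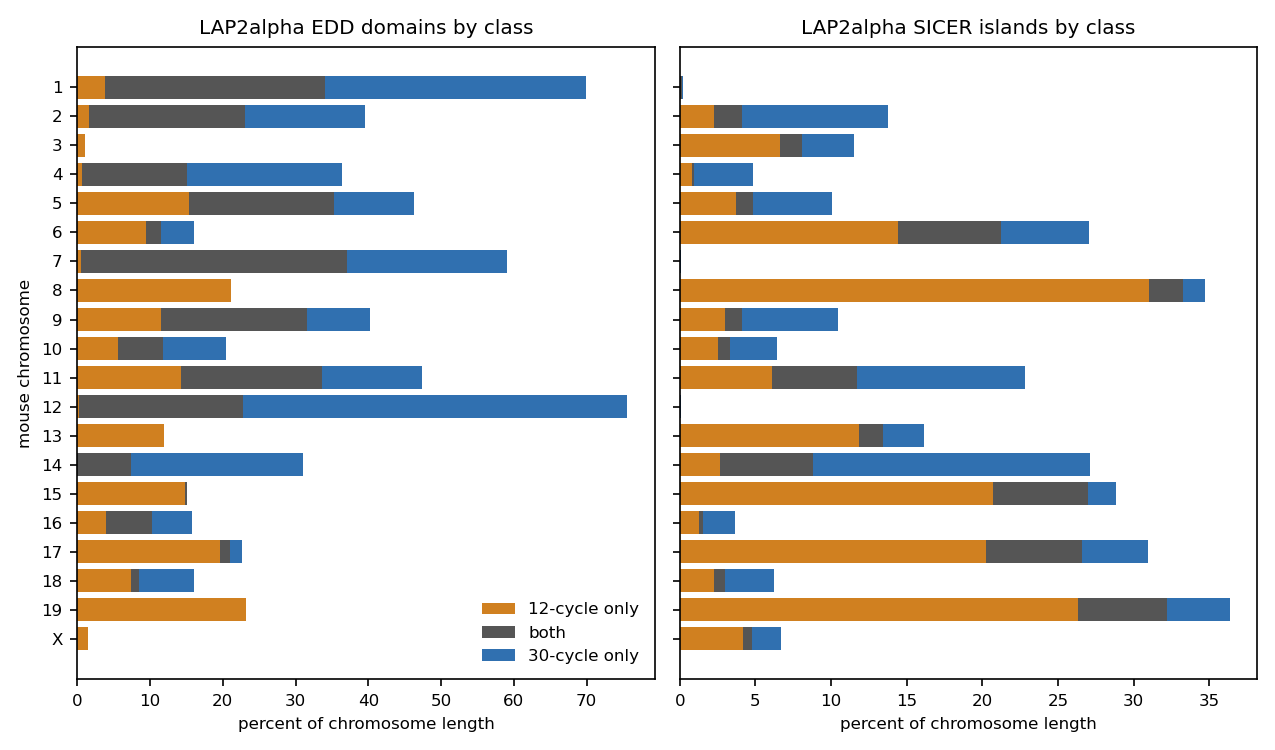
Percent of the length of each mouse chromosome (horizontal axis) covered by LAP2alpha EDD domains (left) and SICER islands (right), stacked by class, 1 library per sonication. Domains on chromosomes 3, 8, 13, 19 and X were found at 12 cycles only, and chromosome 12 reached 75.3% at 30 cycles. Chromosomes 1, 7 and 12 carried domains but almost no islands.

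The other WT libraries sheared for 30 cycles had domains on all 20 chromosomes, although the labels do not give the input each was called against. On chromosome 8, domains of lamin A/C covered 18.6% with antibody N18 and 21.2% with antibody 3A6, and domains of lamin B1 36.1%. On chromosome 19 the values were 1.18%, 10.2% and 27.2%, and on chromosome 13 they were 9.23%, 0.53% and 25.6%. On chromosome 12, where LAP2alpha domains covered 75.3%, they were 7.95%, 21.0% and 41.1%. The lamin libraries came from other flow cells than the LAP2alpha libraries. Input reads and the copy number of chromosomes were not analysed here, and their part in these whole-chromosome values was not tested.

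The longest stretches of each class follow this division. At 12 cycles only, the longest ran over 10.4 Mb of chromosome 8 (118646001 to 129030000) with 132 protein-coding genes. Among them were Cdh13 and Cdh15, which encode T-cadherin and the muscle M-cadherin, and Kcnk1, a background potassium channel. Islands of the 12-cycle library covered 86.4% of this stretch and those of the 30-cycle library 10.4%. The next were 7.48 Mb of chromosome 17 (24508001 to 31988000) with 197 genes, including Lemd2, an inner nuclear membrane protein, and Ndufv3 of mitochondrial complex I, and 7.23 Mb of chromosome 13 (52690001 to 59917000) with 91 genes, including the netrin receptor gene Unc5a. A pair lay on chromosome 15, with 6.85 Mb (73392001 to 80245000) around Kcnj4 and Sun2, which couples the lamina to the cytoskeleton, and 6.14 Mb (83292001 to 89430000) around Wnt7b, a Wnt ligand, and Plxnb2, a semaphorin receptor. The 5 stretches had 46.5% to 49.3% G+C.

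The longest shared stretch covered 16.5 Mb of chromosome 2 (157421001 to 173899000) with 183 genes, among them the cadherin gene Cdh22. It was followed by 14.0 Mb at the end of chromosome 7 (138094001 to 152097000) with 208 genes, among them the potassium channel gene Kcnq1. The third, on chromosome 12 (103202001 to 114554000, 11.4 Mb), held Serpina9 and Serpina12 of the serine protease inhibitors and Cyp46a1, a cholesterol hydroxylase of the brain. Another stretch of chromosome 2 (24530001 to 34067000, 9.54 Mb) held 227 genes, including Col5a1, a collagen of dermal fibroblasts, Grin1, a subunit of NMDA receptors, and Prrx2, a homeobox factor of mesenchyme. The last, 8.90 Mb of chromosome 1 (130339001 to 139238000), held Cntn2, a contactin of axons. G+C ranged from 45.03% to 49.3% over these 5.

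At 30 cycles only, the 3 longest stretches were poor in genes and in G+C. On chromosome 12 (34111001 to 52140000) 18.03 Mb held 42 genes at 38.3% G+C, with the mesenchymal factor gene Twist1 near its start. On chromosome 1, 12.5 Mb (107404001 to 119933000) held 23 genes at 38.2% G+C, among them Cntnap5a, a contactin-associated protein of neurons, Cdh7 and Cdh19 of the type II cadherins and Serpinb3b, and 10.7 Mb (96206001 to 106920000) held 12 genes at 38.0% G+C, among them Cntnap5b and Cdh20. The next, 7.26 Mb of chromosome 2 (17270001 to 24530000) with 43 genes and 5.56 Mb of chromosome 5 (17259001 to 22814000) with 25 genes, had 41.0% and 40.1% G+C. They held Gpr158, an orphan receptor of neurons, and Psmc2, a proteasome subunit. The stretch on chromosome 2 ended where the shared stretch around Col5a1 began. Domains of lamin B1 at 30 cycles covered 76.9%, 100.0%, 100.0%, 42.0% and 78.0% of the 5 stretches in this order, and those of N18 at 12 cycles at most 1.06%.

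**Figure D2:**
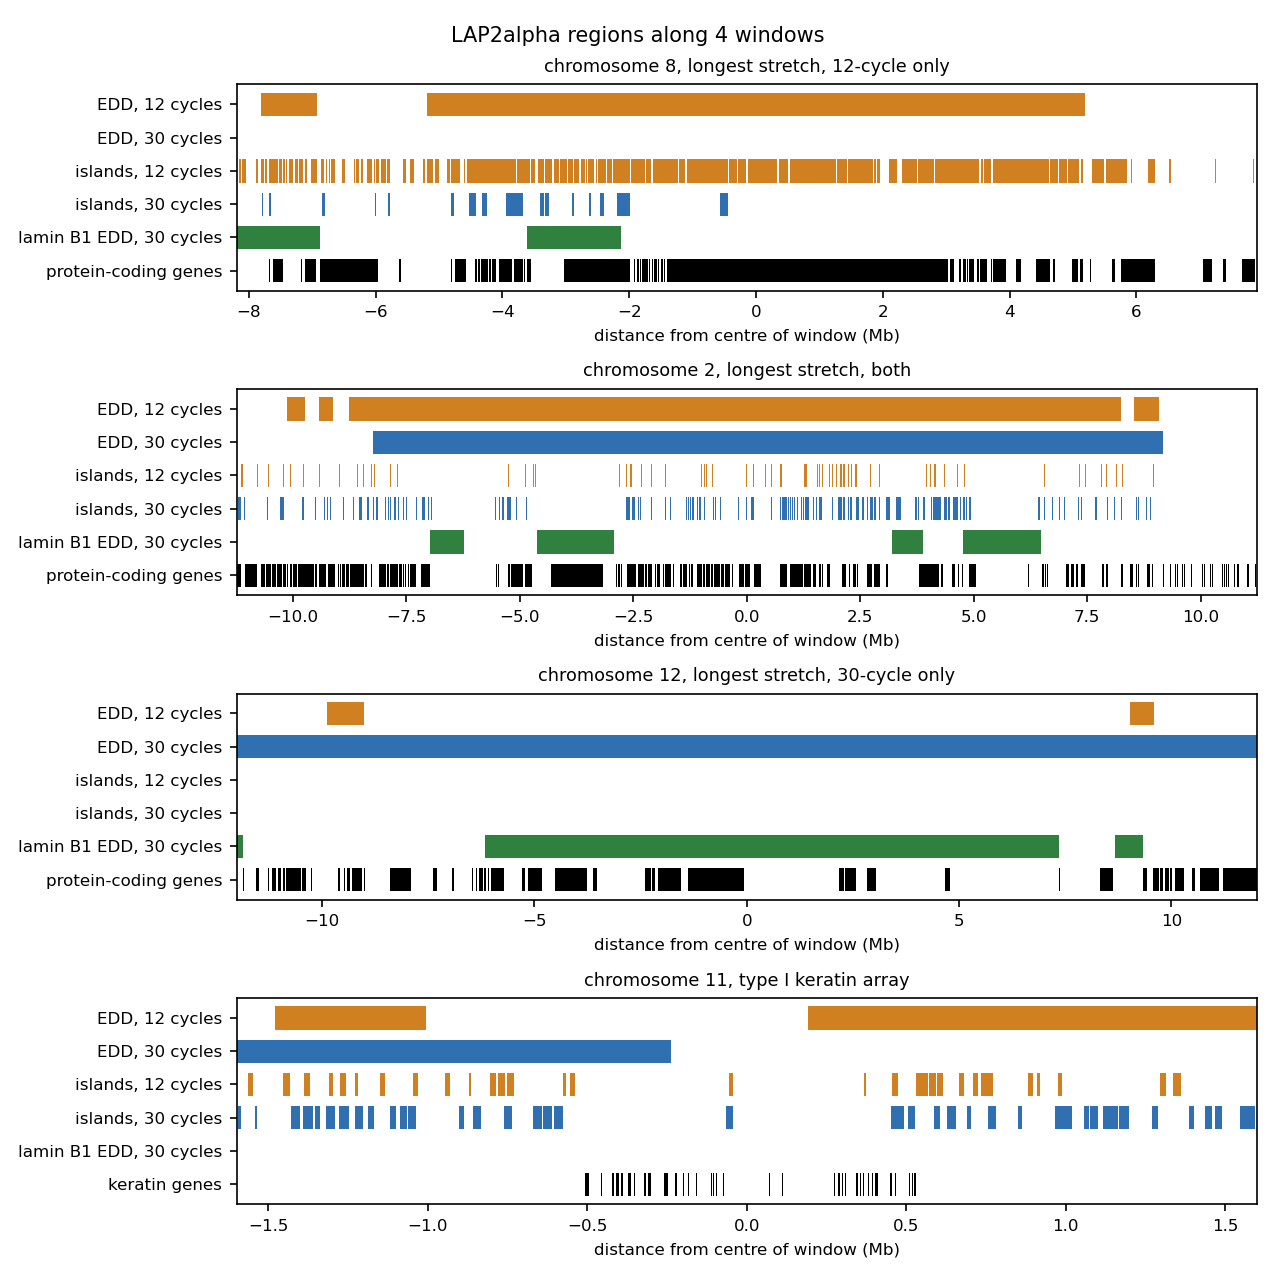
Domains, islands and genes in 4 windows, as distance from the window's centre in Mb. The upper 3 windows show the longest stretch found at 12 cycles only (chromosome 8), in both (chromosome 2) and at 30 cycles only (chromosome 12) with 3 Mb on each side where the chromosome allows, and the lowest the type I keratin array of chromosome 11, where the 30-cycle domain ends and the 12-cycle domain begins within the array, with genes of neither between them.

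In composition, sequence found at 12 cycles only resembled the shared sequence, and sequence found at 30 cycles only was close to the genome as a whole. G+C was 46.9% in the 12-cycle class, 46.3% in the shared class, 41.6% in the 30-cycle class and 41.8% in the genome, and 40.4% in sequence covered in neither library. CpG dinucleotides numbered 12.4, 11.4, 7.98 and 8.34 per kb in the 3 classes and the genome. Protein-coding genes began at 17.9 per Mb, 14.3 per Mb, 8.01 per Mb and 8.69 per Mb, and at 6.74 per Mb in sequence covered in neither library. The number of stretches without a single gene was 30 of 180 at 12 cycles only, 8 of 184 in both and 44 of 264 at 30 cycles only. As whole chromosomes separated the classes, the values were also taken on the 8 chromosomes that held at least 3 Mb of both exclusive classes (1, 5, 6, 9, 10, 11, 16 and 18). G+C was higher in the 12-cycle class on 8 of the 8, for example 44.0% against 39.3% on chromosome 1 and 47.1% against 42.6% on chromosome 11. Gene starts were denser in the 12-cycle class on 6 of the 8. The exceptions were chromosome 16, with 12.0 against 13.6 per Mb, and chromosome 18, with 6.90 against 15.1 per Mb.

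**Figure D3:**
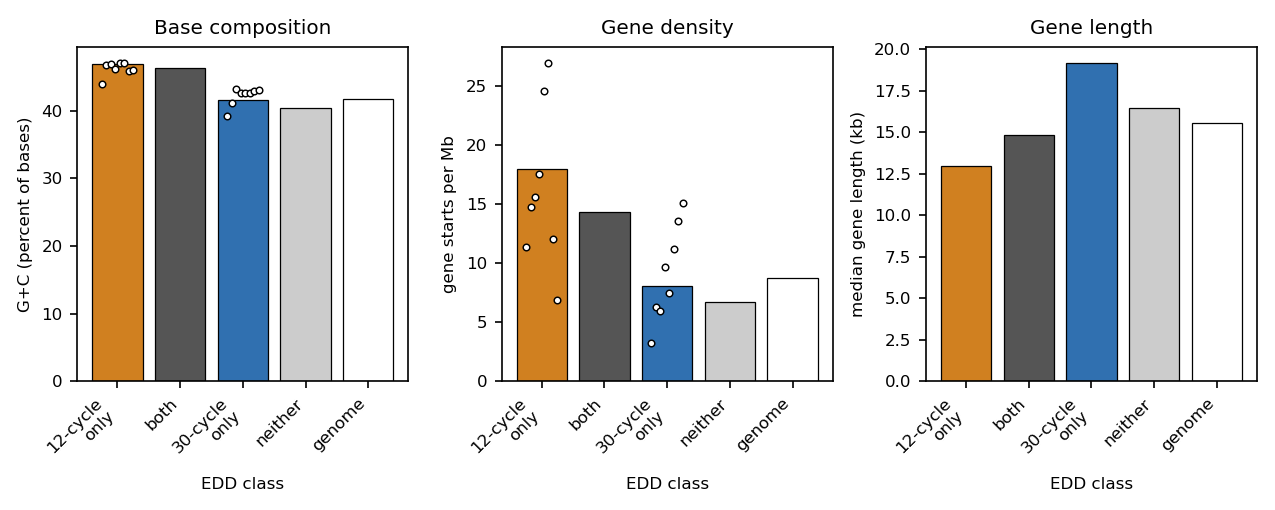
G+C in percent of bases, protein-coding gene starts per Mb and median gene length in kb (vertical axes) by EDD class, in sequence of neither library and in the genome. Bars give all chromosomes pooled and points the 8 chromosomes with at least 3 Mb of both exclusive classes. G+C was lower at 30 cycles only (41.6%) than at 12 cycles only (46.9%), and genes were longer.

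A gene was counted in a class when at least 50% of its length lay in the domains of the library or libraries in question. Of 22208 protein-coding genes, 3496 (15.7%) were in 12-cycle domains only, 4479 (20.2%) in both and 2698 (12.1%) in 30-cycle domains only. The remaining 11535 (51.9%) were in neither. Genes found at 30 cycles only had a median length of 19.2 kb, against 12.9 kb at 12 cycles only, 14.8 kb in both and 15.5 kb for all genes. The means were 49.9 kb, 30.4 kb, 35.9 kb and 45.7 kb in the same order. Genes over 500 kb numbered 27 of 2698 at 30 cycles only, 7 of 3496 at 12 cycles only and 16 of 4479 in both. Another 150 of 11535 were in neither library, and there were 200 among all 22208 genes. The share at 30 cycles only was thus near that of all genes. The counts for gene families are to be read against the shares of all genes. Families lie in arrays, so their members share a domain and are not independent of each other.

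Keratins, the intermediate filament proteins of epithelia, and keratin-associated proteins of hair had 43 of 97 genes at 12 cycles only (44.3%), 5 in both and 10 at 30 cycles only. All 24 keratin genes of chromosome 15, the type II array from Krt80 to Krt18 (101177875 to 101862457), lay in a 12-cycle domain, 23 of them whole within islands of that library, and 24 were without an island at 30 cycles. The type I array on chromosome 11 was split. Its first 10 genes, Krt222 to Krt23 (99094075 to 99354451), lay in a 30-cycle domain only. The next 20, Krt39 to Krtap31-1 (99375428 to 99770204), lay in neither. The last 19, Krtap31-2 to Krt42 (99797605 to 100131185), lay in a 12-cycle domain only. This last group includes Krt14 and Krt15 of basal keratinocytes. Neither exclusive part of the array lay in lamin B1 domains of the 30-cycle library.

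Protocadherins, adhesion proteins of neurons, had 26 of 36 genes at 30 cycles only (72.2%), 1 in both and 0 at 12 cycles only. The 24 annotated genes of the clustered array on chromosome 18 (37089939 to 38001527), from Pcdha11 to Pcdhgc5, all lay in 1 stretch of 2.07 Mb found at 30 cycles only. They had no 12-cycle island, and 15 of the 24 lay in lamin B1 domains at 30 cycles. Outside the array Pcdh15, a gene of 1550 kb on chromosome 10 that encodes a tip-link protein of hair cells, was also covered at 30 cycles only, as was Pcdh1 beside the array.

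Serpins, serine protease inhibitors, had 22 of 60 genes in both, 16 at 30 cycles only and 3 at 12 cycles only. The 22 were the chromosome 12 array, among them Serpina9, Serpina10 and Serpina12, and 13 of the 16 were all the serpin genes of chromosome 1, among them Serpinb7 and Serpine2. The 15 serpin genes of chromosome 13 lay in neither. Receptors of smell were mostly outside domains, with 74.7% of olfactory and 80.1% of vomeronasal receptor genes in neither library, against 51.9% of all genes. Their shares at 30 cycles only, 14.2% and 15.3%, were near the 12.1% of all genes. Olfactory receptors had 158 of 1113 genes at 30 cycles only (14.2%), 87 in both and 37 at 12 cycles only, and vomeronasal receptors 49 of 321 at 30 cycles only, 14 in both and 1 at 12 cycles only. The 49 vomeronasal genes were all on chromosome 7, which holds 153 of the list, and 60 of the 158 olfactory genes were there and 54 on chromosome 2. Beta-defensins, antimicrobial peptides, had 11 of 41 in both, all on chromosome 2, and 7 at 30 cycles only.

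For the next families the counts are given beside the 15.7%, 20.2% and 12.1% of all genes found at 12 cycles only, in both and at 30 cycles only. Tubulins, gamma-tubulin complex genes and actins had 13 of 29 genes at 12 cycles only (44.8%), 5 in both and 0 at 30 cycles only. The 13 lay in 11 stretches on 7 chromosomes, and Tubgcp3, Tubgcp6 and Actg2 were the longest. Chromosomes 6, 8 and 11 held 3 each, and chromosome 8 had no 30-cycle domain. Subunits of mitochondrial complex I had 11 of 42 at 12 cycles only, 9 in both and 3 at 30 cycles only. Of the 11, chromosomes 17 and 19 held 3 each, chromosome 10 held 2, and chromosomes 7, 8 and 13 held 1 each. Domains at 30 cycles covered 2.97% of chromosome 17 and none of chromosomes 8, 13 and 19. Ribosomal proteins, with 18 of 83 (21.7%), 23 (27.7%) and 10 (12.0%) in that order, were near the shares of all genes, and 7 of the 18 were among the 8 of chromosome 17. So were proteasome subunits, with 5 of 39 (12.8%), 10 (25.6%) and 7 (17.9%). Replication-dependent histones were almost all outside, since 2 of 66 lay in both and 64 in neither, 55 of them on chromosome 13. Hox genes, the regulators of body axis in 4 clusters, had 0 of 39 in domains of either library.

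Gene families of neurons were spread over the classes. Ionotropic glutamate receptors had 8 of 19 in both, 2 at 12 cycles only and 1 at 30 cycles only, with Grin2b and Grin2a, NMDA receptor subunits, among the 8 and Grid1, a gene of 763.6 kb, at 30 cycles only. Potassium channels had 33 of 94 in both, 18 at 12 cycles only and 10 at 30 cycles only, and the 10 included the long genes Kcnq5 and Kcnb2. GABA receptors had 4 of 19 at 30 cycles only, among them Gabrg3, 1 in both and 0 at 12 cycles only. Guidance genes, the semaphorins, ephrins and slits with their receptors, had 18 of 64 at 12 cycles only, for example Plxna4 and Slit1, and 7 each in both and at 30 cycles only. Wnt ligands and Frizzled receptors had 7 of 29, 7 and 5. Cadherins were divided by chromosome, with 4 of 23 at 12 cycles only, of which Cdh13, Cdh15 and Cdh5 lie on chromosome 8, 3 in both, all on chromosome 2, and 3 at 30 cycles only, all on chromosome 1.

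**Figure D4:**
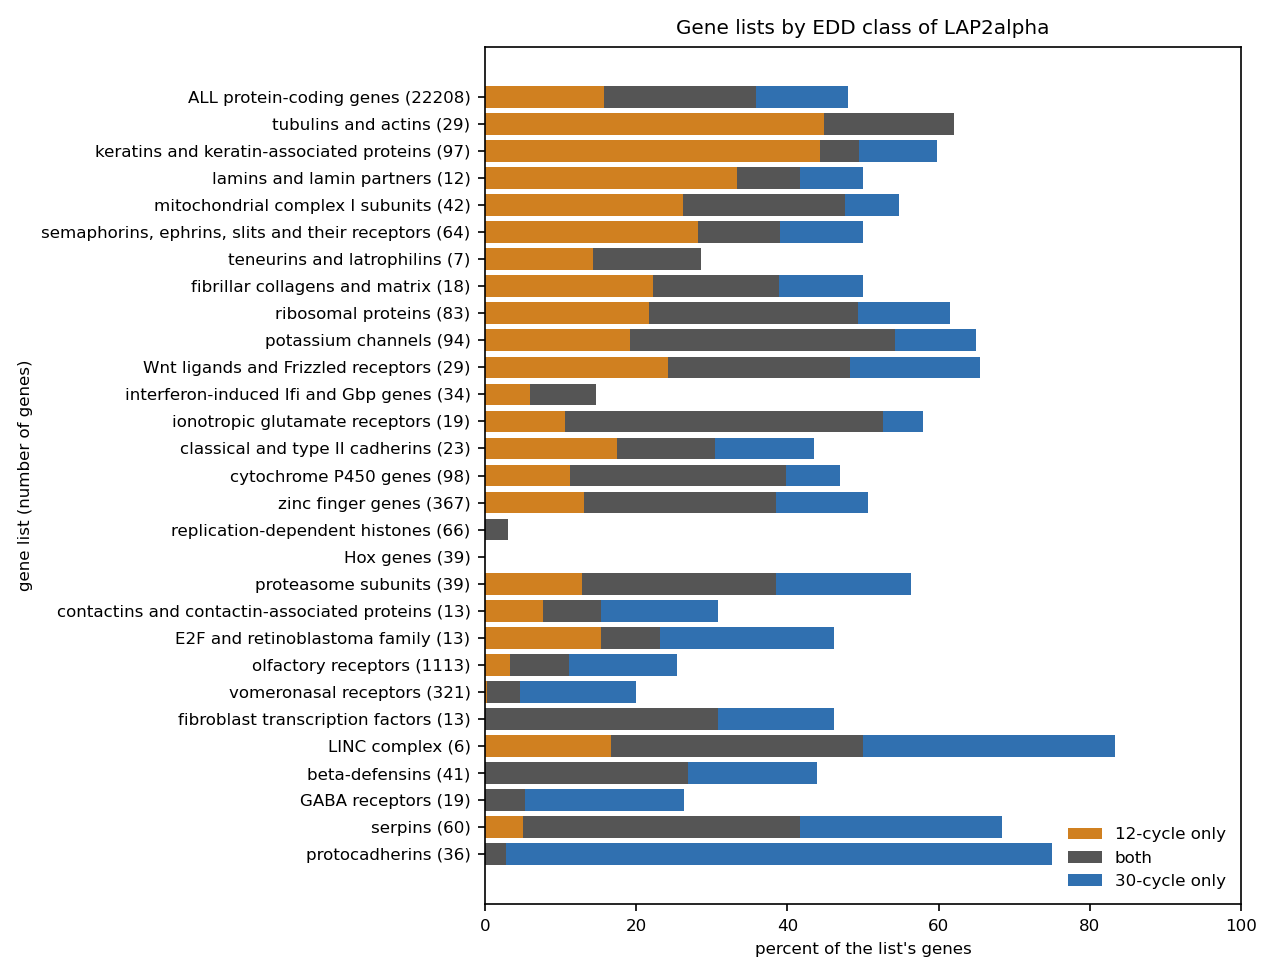
Percent of the genes of each list (horizontal axis, number of genes in parentheses) in EDD domains of the 12-cycle library only, of both and of the 30-cycle library only. The top bar gives all 22208 protein-coding genes. Tubulins, actins and keratins have the widest 12-cycle part and protocadherins the widest 30-cycle part, and no Hox gene lay in a domain.

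Genes of the nuclear lamina and of fibroblasts were on both sides. Of 12 lamins and lamin partners, 4 lay in 12-cycle domains only, among them Lbr, the lamin B receptor, and Lemd2, 1 in both, Lmnb2, and 1 at 30 cycles only, Zmpste24, the protease that matures prelamin A. Of the 6 genes of the LINC complex, which spans the nuclear envelope, Sun2 was covered at 12 cycles only, Sun1 and Sun5 in both, and Syne2 and Sun3 at 30 cycles only. Among 18 collagen and matrix genes, Eln (elastin), Col6a2 and Col11a2 were among the 4 covered at 12 cycles only, Col5a1, Col6a3 and Col5a3 were covered in both, and Fn1 (fibronectin) and Sparc at 30 cycles only. Of the 13 fibroblast transcription factors, Twist1 and Osr1, both on chromosome 12, were covered at 30 cycles only, 4 in both, among them Twist2 and Prrx2, and 0 at 12 cycles only. Of 13 genes of the E2F and retinoblastoma family, regulators of the entry into S phase, E2f2, E2f6 and E2f7 were covered at 30 cycles only, Rbl1 and Tfdp1 at 12 cycles only and E2f8 in both. These classes are by domains, and islands could differ. Islands covered 0% of Col6a2 at 12 cycles and 73.5% at 30 cycles, 73.0% and 77.2% of Lemd2, and 100% of Sun3 in both libraries. At Sun2 and Tfdp1 they covered 100% at 12 cycles and 0% at 30 cycles, and at Lbr and Eln 0% in both libraries.

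Islands were less shared than domains. They covered 241.3 Mb at 12 cycles and 174.2 Mb at 30 cycles, of which 183.3 Mb was found at 12 cycles only, 57.9 Mb in both and 116.2 Mb at 30 cycles only. The shared length was 24.0% of the 12-cycle and 33.3% of the 30-cycle islands. Of the 8950 islands of the 12-cycle library 6076 (67.9%) overlapped no 30-cycle island, and of the 5405 islands of the 30-cycle library 3130 (57.9%) overlapped no 12-cycle island. At 30 cycles the overlapping islands were longer than the others, with a mean of 45.1 kb against 22.9 kb, while at 12 cycles the means were 27.6 kb and 26.6 kb. A gene start lay within 32.5% of the overlapping and 18.9% of the other 30-cycle islands, and within 25.7% and 21.9% of those at 12 cycles. These shares also depend on island length. Per Mb, gene starts numbered 12.8 in the overlapping and 10.7 in the other 30-cycle islands. At 12 cycles the order turned, with 14.9 and 15.3 per Mb. The island classes differed less in composition than the domain classes. G+C was 46.0% at 12 cycles only, 47.1% in both and 45.3% at 30 cycles only, and gene starts numbered 16.1 per Mb, 12.3 per Mb and 11.7 per Mb.

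Coverage by islands differed between the libraries in the same direction as coverage by domains on 16 of 20 chromosomes. On chromosome 8 they covered 33.3% at 12 cycles and 3.68% at 30 cycles, on chromosome 19 32.2% and 9.99%, and on chromosome 14 8.78% and 24.4%. Chromosomes 1, 7 and 12, which held much of the domain length at 30 cycles, together had 15 islands at 12 cycles and 21 at 30 cycles. Islands of the 12-cycle library covered 44.1% of the domain class found at 12 cycles only but 7.86% of the shared class, and islands of the 30-cycle library covered 15.8% of the shared class and 11.2% of the class found at 30 cycles only. Over 2649 bins of 1 Mb the numbers of islands in the libraries had a Pearson r of 0.55, as a description. Within the 17 chromosomes with at least 50 islands in each library, r ranged from 0.42 on chromosome 15 to 0.88 on chromosome 2. The bins share the sequence and base composition of the genome. Of the bins, 1041 held islands of both libraries, 417 of the 12-cycle library alone, 109 of the 30-cycle library alone and 1082 none.

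The densest islands of at least 10 kb in the shared class were found at the same places in both libraries. On chromosome 11 the first island of the assembly (3000001 to 3171000), across Sfi1, Drg1 and Eif4enif1, held 203.7 reads per kb at 12 cycles (exact Poisson 95% interval 201.6 to 205.9), 10.0 times the median island. Its counterpart (3025001 to 3173000) held 380.8 reads per kb at 30 cycles (377.7 to 384.0), 10.3 times the median. An island at the end of chromosome X over Mid1 and Gm17379, of which Mid1 spans the pseudoautosomal boundary in laboratory mice, held 87.4 and 151.2 reads per kb, and an island at the start of chromosome 9 held 80.6 and 155.1. These places were also in islands of lamin A/C libraries, with 67.3%, 100.0% and 100.0% of the 12-cycle islands covered by N18 islands at 12 cycles.

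The exclusive islands of highest density were less dense than these with 1 exception. Found at 12 cycles only, an island of 13 kb on chromosome 17 (39973001 to 39986000) held 318.6 reads per kb (309.0 to 328.5), 15.7 times the median. It overlapped no protein-coding gene and had 49.1 CpG dinucleotides per kb. Of the 6 lamin libraries 1, N18 at 12 cycles, had an island there, over 46.2% of it. The next were an island of 39 kb on chromosome 8 (19917001 to 19956000) with 69.7 reads per kb, of which islands of the 6 lamin libraries each covered 94.9% to 100.0%, and one of 11 kb on chromosome 17 over Tcte2 (13733001 to 13744000) with 53.9. Found at 30 cycles only, the first 3 lay near each other on chromosome 4 (146790001 to 146812000, 146770001 to 146786000 and 145695001 to 145722000), with 79.2, 65.7 and 61.2 reads per kb. Each lay whole in a 30-cycle domain and outside 12-cycle domains. Islands of N18, 3A6 and lamin B1 at 30 cycles each covered 100% of the first. They covered 0%, 87.5% and 87.5% of the second, and 100%, 96.3% and 100% of the third. The densities of all these islands are ChIP counts that were not set against input reads here.

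Where islands overlapped, both had passed the caller, and from the 5th to the 95th percentile all islands held 17.4 to 24.3 reads per kb at 12 cycles and 33.1 to 42.6 at 30 cycles. The ratio of densities is therefore confined by the calling, and its spread is no measure of likeness between the libraries. Over 2874 islands of the 12-cycle library the median ratio of reads per kb, 30 over 12 cycles, was 1.90, and the log2 ratio about that median had an SD of 0.14. From the 5th to the 95th percentile it ran from -0.24 to 0.20. Of the pairs, 4 were over 2-fold below the median ratio and 0 over 2-fold above. Among islands of at least 10 kb, the highest ratio was 1.48 times the median (exact binomial 95% interval 1.28 to 1.71), on chromosome 13 (3370001 to 3380000), and the lowest 0.692 times (0.640 to 0.748), on chromosome 9 (35093001 to 35116000). As islands below the calling density are not listed, ratios of regions seen in 1 library only are not known.

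**Figure D5:**
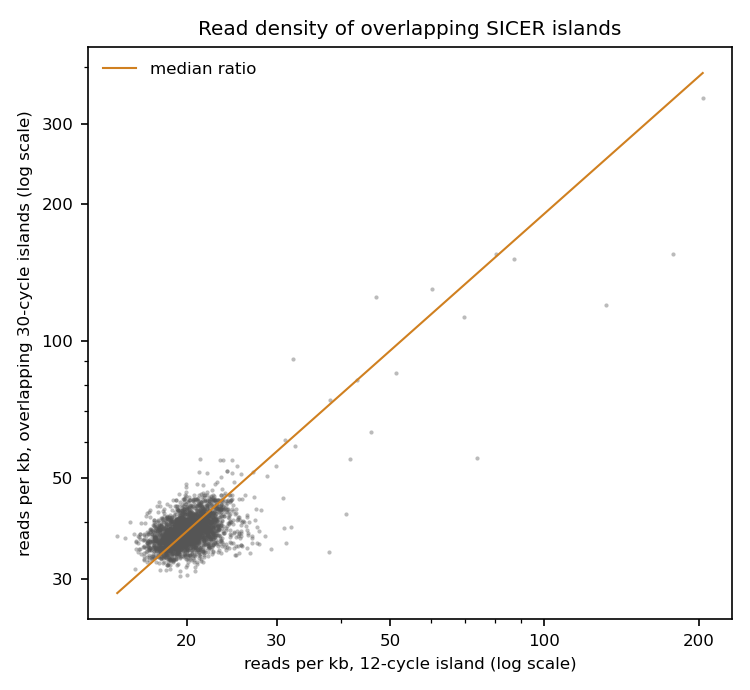
Reads per kb of each of 2874 islands of the 12-cycle library (horizontal axis) and of the 30-cycle islands that overlap it (vertical axis), both on log scales, with a line at the median ratio of 1.90. Most points form 1 cloud about the line, and few islands lie beyond 50 reads per kb at 12 cycles.

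The WT lamin libraries give each class a different surrounding. Which input each library was called against is not given in the labels, so the values are set side by side as a description. Islands of lamin B1 at 12 cycles held 38.4 reads per kb, against 21.1 to 21.2 in those of LAP2alpha, N18 and 3A6 at 12 cycles. What part this difference has in the 12-cycle values was not tested. Domains of N18 at 12 cycles covered 76.3% of the LAP2alpha class found at 12 cycles only, 68.8% of the shared class and 2.24% of the class found at 30 cycles only, and 15.8% of the genome. Domains of 3A6 at 12 cycles covered 57.8%, 72.1%, 6.74% and 15.6%. At 30 cycles N18 covered 20.1%, 31.6%, 10.1% and 9.32%, and 3A6 3.58%, 12.0%, 29.1% and 22.8%. Lamin B1, whose libraries of both sonications shared a flow cell, covered 10.8%, 16.1%, 24.0% and 17.4% at 12 cycles and 11.5%, 22.7%, 45.1% and 37.3% at 30 cycles. Sequence in neither LAP2alpha library had 41.3% in lamin B1 domains at 30 cycles. Pooled over all chromosomes, the class found at 30 cycles only was thus close to sequence outside all LAP2alpha domains. The classes with 12-cycle domains were below both. On 7 of the 8 chromosomes with at least 3 Mb of both exclusive classes the lamin B1 share at 30 cycles was higher in the 30-cycle class, for example 76.5% against 8.54% on chromosome 1, and on chromosome 6 it was 7.63% against 11.2%. Over these 8 chromosomes together, the share was 58.4% in the 30-cycle class and 39.8% in all of their sequence. With SICER islands of the same lamin B1 library as reference the order turned, with 10.6% of the 12-cycle class, 0.963% of the shared class, 1.83% of the 30-cycle class and 11.6% of the genome covered. Islands of N18 at 12 cycles were also few in the shared class, covering 5.24% of it where N18 domains covered 68.8%. Chromosomes 1, 7 and 12 held 45.7% of the shared and 49.97% of the 30-cycle class but almost no LAP2alpha islands. What part this has in the turned order was not tested. By genes, 620 of the 2698 found at 30 cycles only (23.0%) lay in lamin B1 domains of the 30-cycle library, against 79 of 3496 (2.26%) found at 12 cycles only, 333 of 4479 (7.43%) found in both, 2689 of 11535 (23.3%) found in neither and 16.8% of all genes. Pooled over all chromosomes, the share at 30 cycles only was thus near that of genes outside all LAP2alpha domains.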

How the data were processed

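Region lists of LAP2alpha ChIP-seq libraries of Lap2alpha +/+ fibroblasts at 12 and 30 sonication cycles were analysed beside those of 6 WT lamin libraries. Inputs, histone marks and KO libraries were not analysed here. As the submitters' processing notes and the study's methods state, the authors clipped adapters (cutadapt), mapped to mm9 (Bowtie2 2.1.0), discarded poorly mapped and duplicate reads and down-sampled each ChIP library to its input (Picard), which ties its depth to that input. The deposited island lists (SICER 1.1) hold counts, the ChIP reads per island, not normalized. The deposited EDD lists hold a score per domain from the authors' caller. Total depth is not given, as reads outside islands were not used.

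All boundaries are multiples of 1 kb, and classes were formed on 1-kb bins (numpy 2.4.6, pandas 2.3.3), after tests on simulated lists and against bedtools 2.31.1. Percentages of the genome refer to 2556 Mb of assembled sequence. Genes were 22208 protein-coding symbols of a GENCODE annotation of NCBIM37, by the longest record. Intervals are 95% exact intervals (scipy 1.17.1).

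Members and 28 gene lists were chosen with earlier results of these data known. Named were the 5 longest stretches of each class (at most 2 per chromosome) with up to 4 genes of the lists or else the 2 longest genes, the 3 densest islands of at least 10 kb per class, up to 3 genes per list and class by length, and the chromosomes with the largest coverage or change. Gene arrays, the 8 chromosomes with both exclusive classes and other named genes were chosen after their values were seen. The centre of the longest island found at 12 cycles only and 1 gene named by the rule are not reported here.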

Additional observations from a re-analysis of the deposited data

How the results depend on the processing

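No paired analysis was possible because each sonication has 1 library. Lengths, counts, differences and ratios were taken as moved when they changed by more than 1.5 times. With SICER islands in place of EDD domains, the shared length was 57.95 Mb in place of 312.4 Mb and the length found at 30 cycles only 116.2 Mb in place of 337.0 Mb, the excess in G+C of the 12-cycle over the 30-cycle class was 0.773 in place of 5.36 percentage points, and the excess in gene starts 4.36 in place of 9.91 per Mb. On the 8 chromosomes with at least 3 Mb of both exclusive classes, a choice made after seeing the data, the classes held 94.52 Mb, 156.9 Mb and 145.2 Mb, as fewer chromosomes were counted, and G+C differed by 5.53 percentage points. With SICER islands of the lamin libraries as reference, the difference in lamin B1 share at 30 cycles, 30-cycle minus 12-cycle class, reversed from 33.5 to -8.73 percentage points, and that in N18 share at 12 cycles went from -74.1 to -39.3. Chromosomes 1, 7 and 12 carried domains but almost no LAP2alpha islands. The cause of these changes was not tested. The other alternatives, which were domains above the median score or of at least 500 kb, stretches of at least 100 kb, the longer set trimmed, autosomes, overlap of 50%, denser islands, genes by start, other bins and Spearman's rho (0.70), stayed within 1.5 times for the results they were run on. Depth limits which islands could be called, and a region missing from 1 list is not shown to lack LAP2alpha.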

Other observations

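Further gene lists gave the following counts. Zinc finger genes, mostly repressors of transcription, had 93 of 367 in both, 48 at 12 cycles only and 45 at 30 cycles only, and Zfp423, a gene of 297.8 kb on chromosome 8, was the longest at 12 cycles only. Cytochrome P450 genes, oxidases of lipids and drugs, had 28 of 98 in both, 11 at 12 cycles only and 7 at 30 cycles only. The latter included Cyp4a12b and Cyp4b1 on chromosome 4. Interferon-induced Ifi and Gbp genes had 3 of 34 in both, Ifi27l1, Ifi27l2a and Ifi27l2b on chromosome 12, 2 at 12 cycles only and 0 at 30 cycles only. Contactins and their partners had 2 of 13 at 30 cycles only, 1 in both and 1 at 12 cycles only, and of 7 teneurins and latrophilins, Lphn1 was covered at 12 cycles only and Odz4 in both.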
